A study of Mus musculus with 6 samples.

Results

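Genes of lymph node stroma and lymphocyte homing were followed in the inguinal fat of THRA K283Q/K288R mutant and wild type (Wt) mice. They are Glycam1, Madcam1, Ccl21a, Ccl19, Cxcl13, Cr2, Fcer2a, Chst4 and Ccr7, 9 gene symbols carried by 11 of the 55573 identifiers in the deposited values, because Ccl19 and Ccl21a are each listed for chromosome 4 and again for an unplaced scaffold. They were chosen by their known function with values of these libraries already in view, so their levels are given as a description and without a p-value for each gene. Counts of these genes past a threshold are given beside the shares over all genes and are a description as well. RNA-seq had been performed on inguinal fat, a subcutaneous depot, of 3 mutant and 3 Wt male C57BL/6NTac mice, 3 months old, untreated and on a chow diet, with 1 library per mouse. The mutant mice carry a thyroid hormone receptor alpha (THRA) in which both lysines named in the genotype are replaced, a change that removes sites for the small modifier SUMO, and they are homozygous for it in every tissue, so the model does not single out any cell type of the depot. The labels and the methods of the study do not say how much of the depot was taken for RNA, or whether the inguinal lymph node, which lies within this fat, was kept or removed.

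In a lymph node, lymphocytes leave the blood through high endothelial venules, whose cells display sulphated sugars on carrier proteins to which lymphocytes adhere. Inside the node, the chemokines CCL19 and CCL21 from stromal cells draw T cells and dendritic cells that carry the receptor CCR7, and CXCL13 from follicular stroma draws B cells that carry CXCR5. Follicular dendritic cells and follicular B cells hold complement-coated antigen and antibody on receptors such as CR2 and the low-affinity IgE receptor. Fat depots also contain small lymphoid clusters with stroma that makes some of these chemokines.

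One library stood apart in these genes. In mutant mouse 1, Glycam1, Madcam1 and Cr2 were covered by 1 read each, Ccr7 by 4 reads and Fcer2a by 8 reads, whereas each of these genes had between 29 and 4325 reads in each of the other 5 mice. The library itself was not shallow, with 19827797 reads on genes in a range of 19607423 to 24228381 over the 6 mice, although it had the fewest genes with a read, 24067 against up to 25477. Of the 16868 genes tested, 408 (2.42%) were at least 10-fold lower in mutant mouse 1 than in each of the other 5 mice, against 3 to 76 genes for any other library. The main differences between genotypes are therefore given with and without mutant mouse 1. Results of the alternative tests and the counts for several marker lists are given with all mice only.

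**Figure D1:**
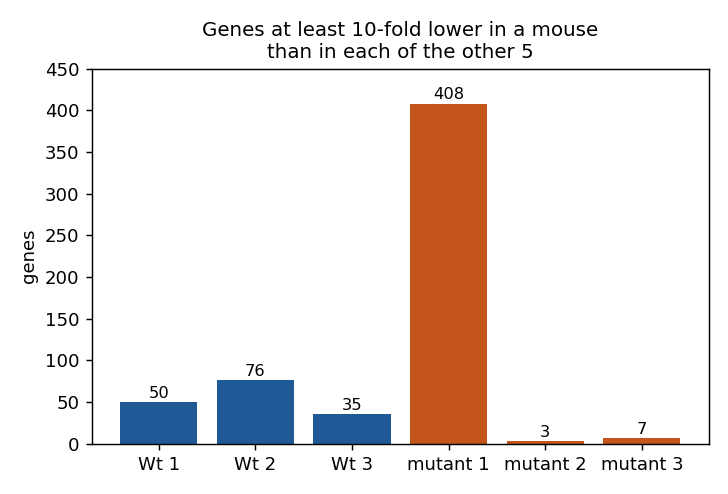
Number of genes, among the 16868 tested, whose normalized value in a mouse (horizontal axis) was at least 10-fold lower than in each of the other 5 mice, with Wt mice in blue and mutant mice in orange. Mutant mouse 1 had 408 such genes, and the other 5 mice had 3 to 76.

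The promoters of 4 of the genes are shown because the first 3 belong to genes that were nearly absent from mutant mouse 1 and the last to a gene that was not. Each is the 250 bases before the transcription start, taken from RefSeq on build GRCm38.p6 and written 5′ to 3′ on the strand of the gene. Capitals mark matches to the κB motif of the NF-κB factors in Madcam1, and to TATAAA and the reverse complement of AGGTCA, the core site of nuclear receptors such as THRA, in Cxcl13.
Madcam1 (chr10:79664309-79664558, plus strand): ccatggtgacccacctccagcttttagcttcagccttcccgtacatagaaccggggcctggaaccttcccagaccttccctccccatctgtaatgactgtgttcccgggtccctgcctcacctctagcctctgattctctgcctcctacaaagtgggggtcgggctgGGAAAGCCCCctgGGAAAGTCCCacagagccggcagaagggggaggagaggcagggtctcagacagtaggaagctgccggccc
Glycam1 (chr15:103565082-103565331, minus strand): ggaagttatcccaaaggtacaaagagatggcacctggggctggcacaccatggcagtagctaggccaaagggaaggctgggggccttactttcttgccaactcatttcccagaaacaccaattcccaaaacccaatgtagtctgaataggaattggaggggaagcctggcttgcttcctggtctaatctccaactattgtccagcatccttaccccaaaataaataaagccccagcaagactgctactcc
Cr2 (chr1:195176720-195176969, minus strand): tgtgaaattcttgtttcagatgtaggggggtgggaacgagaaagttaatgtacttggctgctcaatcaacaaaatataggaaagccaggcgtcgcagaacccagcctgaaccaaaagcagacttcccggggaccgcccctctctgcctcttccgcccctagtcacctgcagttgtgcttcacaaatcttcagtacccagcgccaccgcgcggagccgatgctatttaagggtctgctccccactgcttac
Cxcl13 (chr5:95956689-95956938, plus strand): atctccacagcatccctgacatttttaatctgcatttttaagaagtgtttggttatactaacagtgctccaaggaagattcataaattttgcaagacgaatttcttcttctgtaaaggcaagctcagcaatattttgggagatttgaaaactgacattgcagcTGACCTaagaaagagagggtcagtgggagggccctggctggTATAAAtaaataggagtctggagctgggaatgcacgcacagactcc

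A RefSeq promoter was found for 8 of the 9 genes, in 10 windows, and Ccr7 had no entry. The motifs searched, on both strands, were κB, TATAAA, ATGCAAAT (the octamer of immunoglobulin promoters) and AGGTCA. Madcam1 alone among the windows matched κB, with 2 matches that begin 83 and 70 bases before the start, and 3.9% of all 32851 promoters of this length hold a match. TATAAA, found in 12.4% of all promoters, was present 46 bases before the start of Cxcl13 and 33 bases before 1 of the Fcer2a starts. AGGTCA, found in 14% of all promoters, lay 87 bases before the start of Cxcl13 and 86 bases before another Fcer2a start. ATGCAAAT, found in 1.6% of all promoters, was in none of the windows. These matches describe the letters of the windows and were not tied to the levels below.

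The first group of genes belongs to the high endothelial venule. Glycam1 (ENSMUSG00000022491; chromosome 15, 103562759-103565081, minus strand, GRCm38) encodes a secreted mucin that carries such sulphated sugars. Its normalized CPM (reads scaled to the depth of each library, with a further factor per library by the authors) came to 12.4, 37.2 and 57.8 for Wt mice numbered 1, 2 and 3, against 0.0524, 49.5 and 61.2 for the mutant mice numbered likewise, the order used for every gene below. Mutant mouse 3 was the highest and mutant mouse 1 the lowest of all, Wt mouse 1 was the lowest of the other 5, and the genotypes overlapped. The means were 35.8 ± 22.7 in Wt and 36.9 ± 32.5 in mutant mice (SD, n = 3). On the scale of log2(value + 0.5), the mutant minus Wt difference was -1.35 (SE 1.82) with all mice and 0.86 (SE 0.57) without mutant mouse 1, so its sign rested on that library.

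Chst4 (ENSMUSG00000035930; chromosome 8, 110029153-110039740, minus strand) encodes the sulphotransferase that adds sulphate to these sugars. It was low, at 0.838, 2.14 and 3.62 normalized CPM in Wt and 0.629, 3.10 and 3.98 in mutant mice. Mutant mouse 1 was again the lowest mouse, but with 12 reads it was within reach of Wt mouse 1, the lowest of the others, which was 1.33-fold higher (95% Poisson interval 0.763 to 2.58). The difference between genotypes on the log2 scale was 0.11 (SE 0.62), and 0.72 (SE 0.45) without mutant mouse 1. It turned to -0.33 without Wt mouse 1, -0.12 without mutant mouse 2 and -0.28 without mutant mouse 3. In the other 5 mice Chst4 followed Glycam1 closely, at 0.0576 to 0.0673 Chst4 reads per Glycam1 read, whereas in mutant mouse 1 there were 12 Chst4 reads and 1 Glycam1 read.

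Madcam1 (ENSMUSG00000020310; chromosome 10, 79664559-79668537, plus strand) encodes the addressin bound by the integrin α4β7, which is also found on follicular dendritic cells and other stroma. It was at 1.21, 2.24 and 1.35 normalized CPM in Wt and 0.0524, 1.80 and 2.15 in mutant mice. Mutant mouse 1 was the lowest, and the other 5 mice lay within a narrow range without order by genotype. The log2 difference was -0.46 (SE 0.61) with all mice and 0.26 (SE 0.25) without mutant mouse 1.

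The second group belongs to the B cell follicle. Cr2 (ENSMUSG00000026616; chromosome 1, 195136811-195176716, minus strand) encodes complement receptor 2, carried by B cells and follicular dendritic cells. It was at 41.9, 87.6 and 81.3 normalized CPM in Wt and 0.0524, 54.0 and 85.3 in mutant mice. A single read in mutant mouse 1 stood against 1001 to 1933 reads in the others, and the lowest of these, Wt mouse 1, was 800-fold higher (95% Poisson interval for the reads of mutant mouse 1, 144 to 3.16e+04). The genotypes overlapped, and the log2 difference was -2.30 (SE 1.85) with all mice and 0.02 (SE 0.35) without mutant mouse 1.

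Fcer2a (ENSMUSG00000005540; chromosome 8, 3681737-3694175, minus strand) encodes CD23, the low-affinity receptor for IgE, which marks follicular B cells and, in nodes, follicular dendritic cells. With 77.7, 164 and 182 normalized CPM in Wt and 0.419, 95.1 and 143 in mutant mice, it had the highest value of the 9 genes in every mouse except mutant mouse 1. The 2 mutant mice with the gene lay between Wt mouse 1 and Wt mouse 2, so the genotypes overlapped. Wt mouse 1 was 185-fold above mutant mouse 1 (95% Poisson interval 94.0 to 429). The log2 difference was -2.51 (SE 1.86) with all mice and -0.18 (SE 0.38) without mutant mouse 1.

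Cxcl13 (ENSMUSG00000023078; chromosome 5, 95956951-95961068, plus strand) encodes the chemokine that draws B cells into follicles, where stromal cells make it. It was at 25.6, 51.8 and 55.2 normalized CPM in Wt and 26.6, 54.3 and 74.0 in mutant mice. Unlike Cr2 and Fcer2a it was kept in mutant mouse 1, where 507 reads placed it level with Wt mouse 1 (ratio of Wt mouse 1 to mutant mouse 1, 0.962, 95% Poisson interval 0.882 to 1.05). The log2 difference was 0.18 (SE 0.44), and 0.59 (SE 0.34) without mutant mouse 1. Its sign was not fixed, at -0.17 without Wt mouse 1 and -0.14 without mutant mouse 3. Cxcl13 made up 94.2% of the summed level of the 9 genes in mutant mouse 1. Markers of mesothelium, the lining of body cavities and of the organs within them, moved with genotype in the same libraries. Of 8 such genes, 7 passed the FDR as higher in mutant mice by limma, against 5.50% of all genes, and 7 without mutant mouse 1 too. Msln, among them, was at 0.168, 0.146 and 0.715 in Wt and 12.6, 6.28 and 7.91 in mutant mice. The summed level of the list was 8.32 to 34.0 in Wt and 42.8 to 85.7 in mutant mice, highest in mutant mouse 1. Krt19, the gene that was not called, made up 28.5 of the 34.0 in Wt mouse 1. Which cells made the Cxcl13 read here, and the part of mesothelial cells in its level, was not tested.

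**Figure D2:**
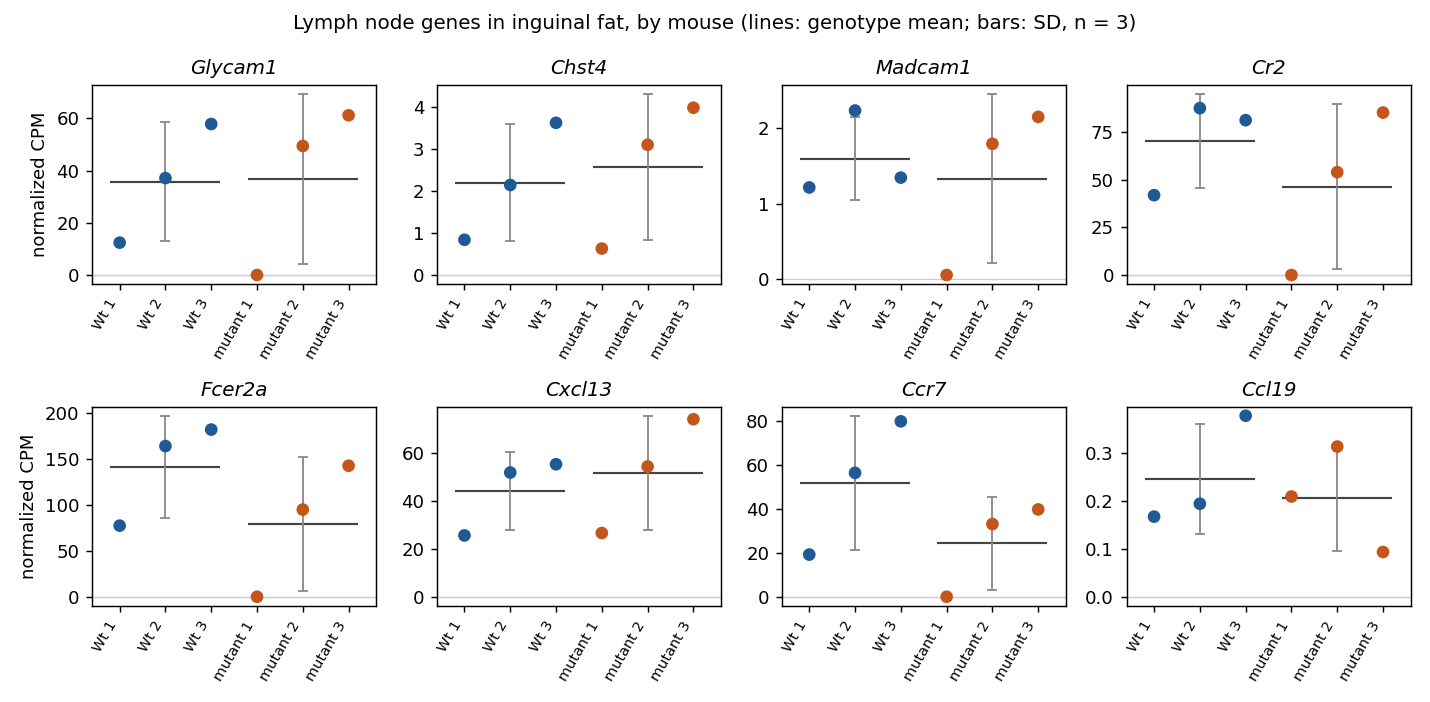
Normalized CPM (linear vertical axes with a scale for each gene) of 8 lymph node genes in each of the 3 Wt mice (blue) and 3 mutant mice (orange), with a line at the mean of each genotype and a bar of 1 SD either way. Ccl21a, at 0 in all libraries, is not drawn. Glycam1, Madcam1, Cr2, Fcer2a and Ccr7 were at 0.0524 to 0.419 in mutant mouse 1, whereas Cxcl13 was at 26.6 there and at 25.6 to 74.0 in the other 5 mice.

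The third group is the CCR7 axis. Ccr7 (ENSMUSG00000037944; chromosome 11, 99144196-99155077, minus strand), the receptor of naive and central memory T cells, B cells and migrating dendritic cells, was at 19.4, 56.6 and 80.1 normalized CPM in Wt and 0.210, 33.3 and 40.0 in mutant mice. Mutant mice 2 and 3 lay between Wt mouse 1 and Wt mouse 2. Wt mouse 1 was 92.5-fold above mutant mouse 1 (95% Poisson interval 36.1 to 340). The log2 difference was -2.19 (SE 1.57) with all mice and -0.29 (SE 0.54) without mutant mouse 1.

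The ligands of CCR7 were hardly read in any library. Ccl19 (ENSMUSG00000071005; chromosome 4, 42754525-42756577, minus strand) had 0.168, 0.195 and 0.379 normalized CPM in Wt and 0.210, 0.314 and 0.0936 in mutant mice, 30 reads in all, and it did not pass the filter on low values. In contrast to Ccr7, its 4 reads in mutant mouse 1 were within the 2 to 9 reads of the other mice. Its second identifier, on an unplaced scaffold, was listed at 0 in all 6 libraries. Ccl21a (ENSMUSG00000094686; chromosome 4, 42772860-42773993, minus strand) and its second identifier were listed at 0 in all 6 libraries as well, including the 5 with abundant Ccr7, Cr2 and Glycam1. At the depth of these libraries 3 reads correspond to 0.126 to 0.157 normalized CPM, a floor that covers counting error only.

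Ccl21a and Ccl19 have near-identical copies on chromosome 4 and on unplaced scaffolds, and the sequences are shown because a read that falls within a shared stretch cannot be placed by its letters. Bases 69 to 209 of the coding sequence of Ccl21a are given below, counted from 1 at the A of the start codon, with the same bases of Ccl21b, from GRCm38 and in the direction of transcription. The intron between them was left out, and capitals mark the bases that differ.
Ccl21a (chr4:42773528-42773762, minus strand): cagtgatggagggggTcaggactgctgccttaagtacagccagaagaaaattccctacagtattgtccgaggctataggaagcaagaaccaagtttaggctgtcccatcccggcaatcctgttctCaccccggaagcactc
Ccl21b (chr4:42255923-42256157, plus strand): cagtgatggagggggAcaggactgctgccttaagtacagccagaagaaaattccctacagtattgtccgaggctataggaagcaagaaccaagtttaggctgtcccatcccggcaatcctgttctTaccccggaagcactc

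The differences are T84A and C194T, with the base of Ccl21a first, and they are the only 2 in the 399 coding bases (99.5% identity). Gm10591, Gm13304 and Gm21541 carry the same 2 differences from Ccl21a. Of 821 windows of 50 bases along Ccl21a transcripts, 588 (71.6%) were found without mismatch in 4 other genes, and 50.3% of windows of 100 bases were. For Ccl19 the shares were 52% and 39.3%, and for Ccl21b they were 100% at both lengths. No window was shared for Glycam1, Madcam1, Cxcl13, Cr2, Chst4 or Ccr7, and for Fcer2a 1.2% of windows of 50 bases and 0% of windows of 100 bases were. Across the 13 listed identifiers of Ccl19, Ccl21 and their copies, 11 were at 0 in all libraries, and Gm10591 had 1 read, in Wt mouse 3. Levels of Ccl21a, Ccl19 and their copies are therefore uncertain. The part of shared sequence in the values of 0 was not tested.

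**Figure D3:**
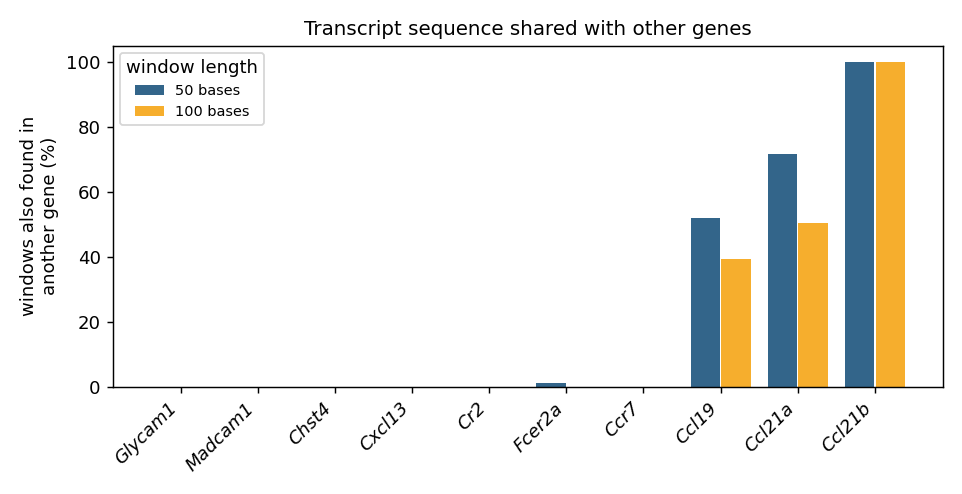
Percent of windows along the transcripts of each gene (blue, 50 bases; orange, 100 bases) that were found without mismatch in a transcript of another gene. Ccl21a (71.6% and 50.3%), its copy Ccl21b (100% at both lengths) and Ccl19 (52% and 39.3%) stand apart from the other genes, which lie at 0% to 1.2%.

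Per kilobase of summed exons, so that genes can be set against each other, the Wt levels were 45.7 ± 18.0 normalized CPM for Fcer2a, 38.4 ± 14.1 for Cxcl13, 26.3 ± 15.5 for Ccr7, 16.8 ± 10.7 for Glycam1, 8.67 ± 3.05 for Cr2, 1.11 ± 0.387 for Madcam1, 0.963 ± 0.610 for Chst4 and 0.285 ± 0.133 for Ccl19 (SD, n = 3). The exons of all annotated transcripts of a gene were merged, which gave 2133 bases for Glycam1. A gene whose main transcript is shorter than its merged exons is understated, so the order of genes is uncertain. The SDs measure the spread between mice. The order from Fcer2a down to Cr2 was the same in each Wt mouse, with Madcam1 and Chst4 below Cr2, and Ccl19 below both. Madcam1 and Chst4 changed places between Wt mice. In mutant mice 2 and 3 the order differed. Cxcl13 (47.2 and 64.4) stood above Fcer2a (30.8 and 46.2), and Glycam1 (23.2 and 28.7) above Ccr7 (16.8 and 20.2). The venule carrier Glycam1 was far above the sulphotransferase gene Chst4 and the addressin gene Madcam1 in each Wt mouse.

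Across the genotypes, 7 of the 9 genes passed the filter on low values. None of the 7 passed an FDR of 0.05 in limma, against 8.11% of all 16868 genes tested (5.50% higher and 2.61% lower in mutant mice), and 0 of the 7 had an unadjusted p under 0.05, against 24.2% of all genes. The same counts of 0 were found with edgeR's quasi-likelihood test, which called 6.92% of all genes, and with DESeq2, which called 12.6%. Without mutant mouse 1, limma called 5.96% of all genes and again 0 of the 7. At an unadjusted p under 0.05 the count was 0 of the 7, against 19.9% of all genes. The median of their log2 differences was -1.35, against -0.05 over all genes tested, and 0.26 without mutant mouse 1. It was -0.20 in edgeR, which averages reads before taking logarithms. Mutant mouse 1 was the lowest of the 6 mice for 6 of the 7 genes, as it was for 5055 of the 16868 genes tested, and at least 10-fold below every other mouse for 5 of the 7, against 2.42%. Since the genes were selected on such values, these counts describe them and nothing more. The summed level of the 9 genes was 179, 402 and 462 normalized CPM in Wt and 28.2, 291 and 409 in mutant mice. Mutant mice thus stood at 0.699 of Wt with all mice and at 1.01 without mutant mouse 1. Among Wt mice alone the sum varied 2.58-fold, from mouse 1 to mouse 3. In whole tissue, fewer cells of a type and less RNA per cell cannot be told apart.

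The cells that would carry or answer these signals were followed through marker lists, also chosen with earlier values known. B cell markers were at least 10-fold lower in mutant mouse 1 than in every other mouse for 12 of 14 genes, and T cell markers for 11 of 14. Summed, the B cell list was at 775, 1584 and 1713 normalized CPM in Wt and 29.9, 947 and 1457 in mutant mice, and the T cell list at 244, 699 and 971 in Wt and 16.5, 399 and 514 in mutant mice. Cd22, an inhibitory receptor of B cells, was at 0.734 in mutant mouse 1 and at 104 to 237 in the other mice. Cd4, the co-receptor of helper T cells, was at 1.73 in mutant mouse 1 and at 26.9 to 132 in the others. Between genotypes 0 genes of either list passed the FDR by limma, edgeR or DESeq2, against 8.11%, 6.92% and 12.6% of all genes. At an unadjusted limma p under 0.05 the count was 0 as well, against 24.2% of all genes. The SE of the log2 difference was 1.87 for Cd22 and 1.33 for Cd4, and 0.38 and 0.60 without mutant mouse 1. The counts of 0 therefore do not show equal levels. The medians of the log2 differences were -2.16 for B cells and -1.88 for T cells (-0.11 and -0.27 without mutant mouse 1). They were -0.70 and -0.96 in edgeR and -0.72 and -0.98 in DESeq2. The share of lymphocytes in the level of each of the 9 genes was not tested.

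**Figure D4:**
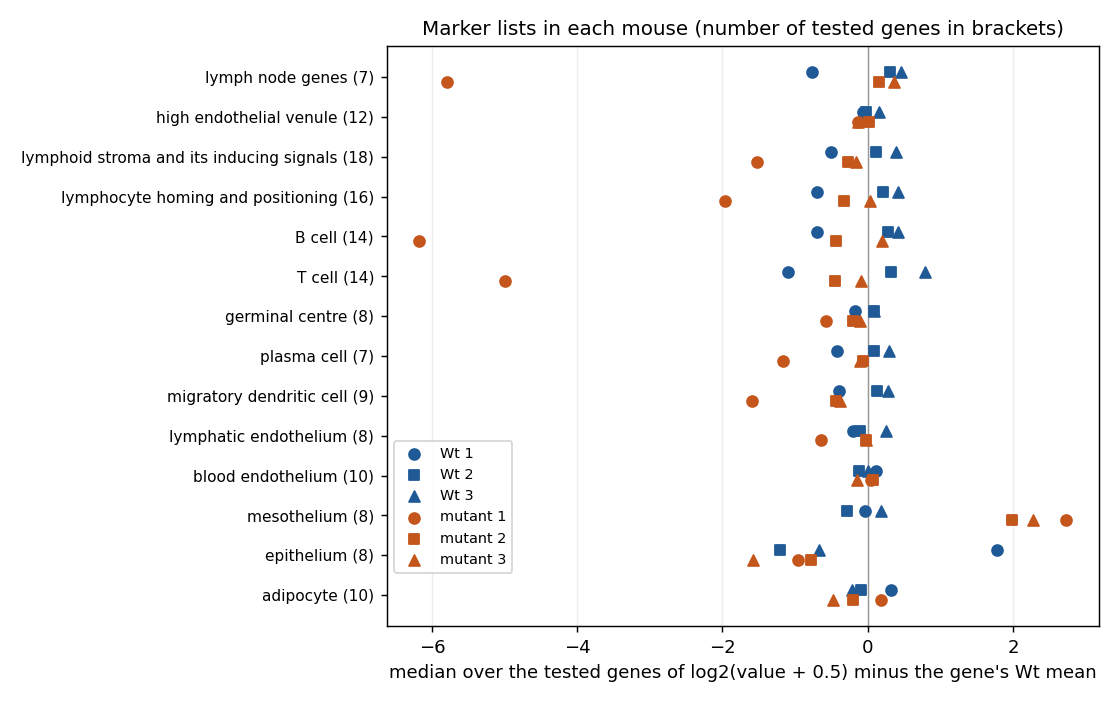
For each marker list, the median over its tested genes (number in brackets) of log2(value + 0.5) minus the mean of the gene in Wt mice, 1 point per mouse, with Wt in blue and mutant in orange. Mutant mouse 1 was lowest in the lymph node genes, B cells and T cells, whereas blood endothelium lay near 0 in all mice and mesothelium was higher in the 3 mutant mice.

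Other genes of homing and positioning followed the same libraries. Of 16 genes in that list, 15 were lowest in mutant mouse 1 and 5 were at least 10-fold below every other mouse. Cxcl12, a chemokine made by stroma and endothelium of many tissues, was at 281, 317 and 379 in Wt and 208, 264 and 237 in mutant mice, lowest in mutant mouse 1 but without a gap of that size. Cxcr5, the receptor for CXCL13, was at 22.0, 47.7 and 48.3 in Wt and 0.157, 27.1 and 42.2 in mutant mice, and was named after its values were seen. Thus in mutant mouse 1 the B cell chemokine was read and its receptor was nearly not.

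Of the 16 genes, 1 passed the FDR by limma, a share close to the 8.11% of all genes, so the count says nothing about the list. This gene, Ackr4, encodes an atypical receptor that takes up CCL19, CCL21 and CCL25 without signalling for migration. It was at 2.68, 2.67 and 3.28 in Wt and 5.97, 8.48 and 6.04 in mutant mice. Every mutant mouse lay above every Wt mouse for Ackr4, as for 2517 of the 16868 genes tested. It rose by 1.11 on the log2 scale (SE 0.18, limma adjusted p = 0.0169, and 0.0236 without mutant mouse 1). It was thus higher in mutant mouse 1 too, where the receptor Ccr7 was at 4 reads. The median of the list was -0.86, and -0.16 without mutant mouse 1.

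Of 12 further genes of high endothelial venules, 0 passed the FDR by limma, edgeR or DESeq2, against 8.11%, 6.92% and 12.6% of all genes. An unadjusted limma p under 0.05 was found for 1 of the 12, against 24.2% of all genes. The median difference was -0.08 (-0.00 without mutant mouse 1). Mutant mouse 1 was lowest for 5 of the 12. Enpp2, which makes lysophosphatidic acid and is also abundant in adipocytes, was at 357 to 532 in all 6 mice, and Cd34, a surface sialomucin found on endothelium and stromal progenitors, at 183 to 243. Fut7, a fucosyltransferase that completes the sugars of the venule, was at 1.47, 3.16 and 3.997 in Wt and 0.105, 1.44 and 1.87 in mutant mice, and is named here after its values were seen as the single gene of the list that was at least 10-fold lower in mutant mouse 1 than in every other mouse. It is made by leukocytes as well as by venule cells.

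Lymphoid stroma and its inducing signals ranged from genes nearly absent from mutant mouse 1 to genes kept there. Of 18 genes, 0 passed the FDR by limma, edgeR or DESeq2, against 8.11%, 6.92% and 12.6% of all genes. An unadjusted limma p under 0.05 was found for 2 of the 18, against 24.2% of all genes. Of the 18, 13 were lowest in mutant mouse 1 and 3 were at least 10-fold lower there than in every other mouse. Those 3, named after their values were seen, were Lta, Ltb and Tnfsf11, cytokines that lymphocytes and inducer cells use to instruct stroma. Ltb, for example, was at 35.4, 80.3 and 116 in Wt and 0.891, 43.4 and 65.2 in mutant mice. The 2 most abundant genes of the list, which cells outside lymph nodes also make, had no such gap. Mfge8, an opsonin of follicular dendritic cells and macrophages, was at 252 to 358 in all mice, and Fcgr2b, an inhibitory antibody receptor, at 59.7 to 70.0. The median difference was -0.65 (-0.22 without mutant mouse 1).

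The remaining lists bound the pattern. Migratory dendritic cell genes were lowest in mutant mouse 1 for 9 of 9. The depth of the gap varied, from Ccl22, a chemokine of mature dendritic cells named after its values were seen, at 0.681 there and 15.7 to 49.6 in the others, to Fscn1, an actin-bundling protein of mature dendritic cells, at 43.3 there and 73.9 to 187 in the others. Plasma cell genes were at a summed level of 97.2, 128 and 148 in Wt and 44.4, 89.1 and 86.6 in mutant mice, and mutant mouse 1 was the lowest. Jchain, the joining chain of secreted antibody, was at 43.4, 62.3 and 79.8 in Wt and 8.23, 28.9 and 28.1 in mutant mice. Every mutant mouse thus lay below every Wt mouse for Jchain, as for 2647 of the 16868 genes tested. Its log2 difference was -1.64 (SE 0.50, limma adjusted p = 0.106), and -1.06 (SE 0.24, limma adjusted p = 0.0526) without mutant mouse 1, which did not pass the FDR. Germinal centre genes summed to 169 to 187 in all mice, led by Bcl6 and Fas, which other cells of fat also express. The lists of lymphatic endothelium (202 to 276 summed), blood endothelium (1084 to 1268) and adipocytes (16960 to 31980) had 0 genes at least 10-fold lower in mutant mouse 1 than in every other mouse. In the lymphatic list 6 of 8 genes were nevertheless lowest there, against 1 of 10 for blood endothelium and 0 of 10 for adipocytes. Prox1, the factor that specifies lymphatic endothelium, was at 1.83 in mutant mouse 1 and 3.56 to 10.98 in the others, and Mmrn1 at 3.98 and 11.3 to 21.5, both named after their values were seen. In these 6 lists 0 genes passed the FDR between genotypes by limma or edgeR, against 8.11% and 6.92% of all genes. In the order migratory dendritic cell, plasma cell, germinal centre, lymphatic endothelium, blood endothelium and adipocyte, the unadjusted limma p was under 0.05 for 2, 1, 4, 2, 4 and 3 genes, and DESeq2 called 2, 1, 3, 0, 3 and 3, out of 9, 7, 8, 8, 10 and 10 genes tested. Over all genes the shares were 24.2% and 12.6%.

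Among the 5 mice in which lymphoid genes were well read, pairs of genes kept close proportions although the levels themselves differed. Cr2 stood at 0.447 to 0.598 reads per Fcer2a read. Ccr7 was at 0.883 to 1.03 reads per read of Cd3e, a chain of the T cell receptor complex. Cxcl13 varied more, at 0.591 to 1.01 per Cr2 read. Cd3e was named after its values were seen, and the levels of a mouse share 1 library, so the proportions are descriptions. In mutant mouse 1, 4 Ccr7 reads stood beside 8 Cd3e reads, whereas 507 Cxcl13 reads stood beside 1 Cr2 read.

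**Figure D5:**
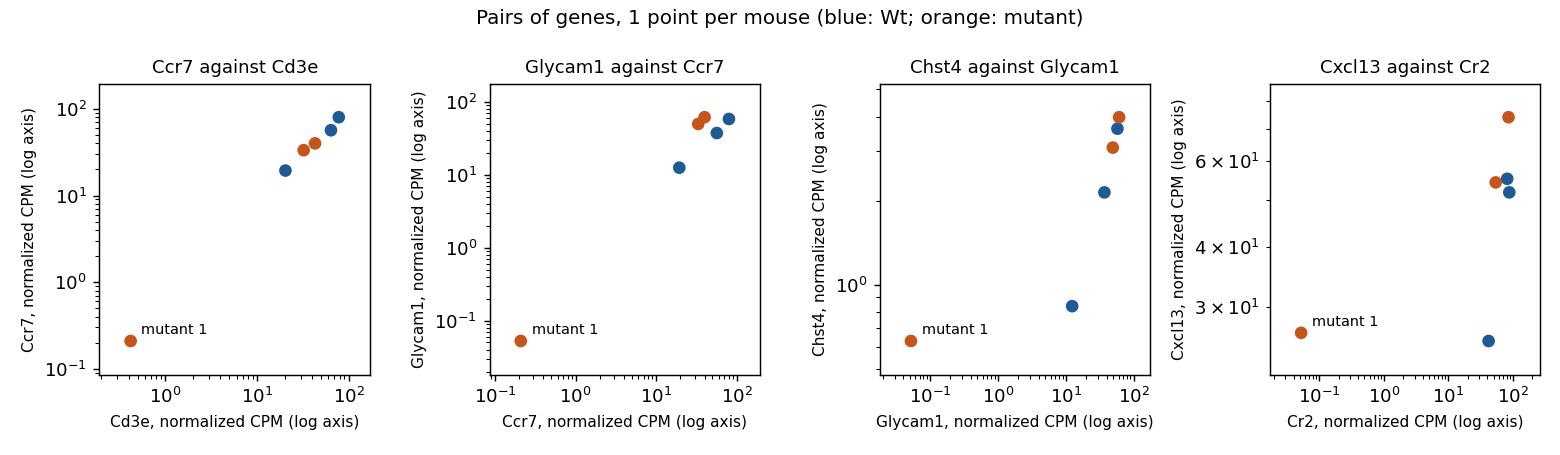
Normalized CPM of 4 pairs of genes, 1 point per mouse (log axes), with Wt in blue and mutant in orange. Among the 5 mice other than mutant mouse 1 the ratio was 0.883 to 1.03 for Ccr7 over Cd3e, 0.0576 to 0.0673 for Chst4 over Glycam1, 0.591 to 1.01 for Cxcl13 over Cr2 and 0.642 to 1.53 for Glycam1 over Ccr7.

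Over the 6 libraries, each of the 7 genes was set against the mean standardized level of the others. Pearson's r was 0.99 for Glycam1, 0.96 for Ccr7, 0.95 for Cr2 and Fcer2a, 0.94 for Madcam1, 0.85 for Chst4 and 0.79 for Cxcl13, values to which mutant mouse 1 contributes in common. Among 4272 other genes with a sufficient range, those most like the mean profile were Prg3, Bfsp2, Cd69, Il22ra2, Igkv5-39, Trim30b, Igkv13-84, Igkv17-127, Igkj1 and Cd180, with r from 0.998 down to 0.993. Cd69, an early activation antigen of lymphocytes, was at 4.44, 11.8 and 13.1 in Wt and 0.681, 9.56 and 12.3 in mutant mice. Il22ra2, a soluble receptor for interleukin-22, was at 5.49, 16.9 and 19.9 in Wt and 0.367, 14.0 and 17.6 in mutant mice. Several of the others are segments of the immunoglobulin kappa locus.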

How the data were processed

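RNA from inguinal fat of 3 mutant and 3 Wt mice was sequenced, with 1 library per mouse, and groups and replicate numbers come from the titles of the samples. The authors deposited a normalized signal per gene, CPM scaled by a factor for each library (0.962 to 1.11). Per the labels' processing notes, Bowtie2 2.1.0, RSEM 1.2.15, edgeR and mm10 were used. Read length, use of strand and the handling of reads with several positions are not given in the sources used here. In each library 100% of values were whole multiples of 1 read (tolerance 0.01), which gave 19607423 to 24228381 reads. Reads varied more within a genotype than counting error gives (chi-square over its degrees of freedom, 17.5 to 59.1).

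The 16868 genes kept by edgeR's filterByExpr on these reads were compared with limma 3.58.1 (trend, R 4.3.3) on log2(value + 0.5), with Benjamini-Hochberg adjustment at an FDR of 0.05, which understates changes of low genes. A count-based test had been planned as an alternative, and edgeR 4.0.16 and DESeq2 1.42.0 were run on the recovered reads. The tests were tested on simulated data. P-values measure the spread between these mice, and 3 against 3 cannot give an exact permutation p under 0.1. Poisson intervals cover counting error in mutant mouse 1 only. Coordinates, exon lengths and shared windows are from GENCODE M21 on GRCm38, which held 99.8% of identifiers, and windows were searched on both strands of the transcripts of the reference chromosomes. Promoters are from RefSeq GRCm38.p6.

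The 9 genes and the 13 marker lists were chosen with earlier results of these data known. Genes named are the 9, the copies of Ccl19 and Ccl21, the 2 most abundant genes of each list with those past the FDR, and the 10 genes most like the 9 in profile. Other genes were named after their values were seen, as said where they appear, and some genes that the rule names are not reported here. Candidates for likeness were genes that passed the filter and varied across the libraries. Alternatives were other tests, scaling by library size, other filters and pseudocounts, leaving out each mouse and a replicate block.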

Additional observations from a re-analysis of the deposited data

How the results depend on the processing

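The count of genes past the FDR was 1368 (67.8% of them higher in mutant mice) and changed to 2118 with DESeq2, to 598 (57.7% higher) with at least 10 reads in every library and to between 554 and 1005 (up to 89.5% higher) on leaving out 1 mouse. Scaling by library size alone gave 79.4% higher and no filter gave 77.4%. Over the marker lists, 8 of 140 genes were called, 22 with DESeq2, 3 with at least 10 reads in every library and 6 to 8 on leaving out 1 mouse. The median difference of the 7 genes tested ran from -2.54 to 0.26 on leaving out 1 mouse, with 0.26 without mutant mouse 1, and was 0.14 over the 2 genes left with at least 10 reads in every library. Pseudocounts of 0.1 and 1 gave -1.96 and -1.06. The ratio of the summed levels of the 9 genes ran from 0.46 to 1.01 on leaving out 1 mouse. The causes of these shifts were not tested. What same-numbered mice share besides the number is not said in the labels. Their deviations correlated at 0.71, 0.01 and 0.55, whereas Wt mouse 2 correlated best with mutant mouse 3 and mutant mouse 2 with Wt mouse 3. Whether the number stands for a shared step of processing was not tested. With a replicate block, 4063 genes (42.7% higher) and 46 list genes were called, and 0 of the 7 lymph node genes tested. Depth limits Ccl19, Madcam1 and Chst4.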

Other observations

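The venule gene Glycam1 stood at 0.642, 0.656 and 0.722 reads per Ccr7 read across the Wt mice, against 1.49 and 1.53 for mutant mice 2 and 3, so the genotypes did not overlap outside mutant mouse 1, where the ratio was 1 read to 4. Per Cd3e read the values were 0.609, 0.580 and 0.742 for Wt, against 1.53 and 1.42 for those mutant mice. These ratios were picked after the values were seen, and the difference was not tested.

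Of 8 epithelial genes, 6 were highest in Wt mouse 1. Krt5 and Krt14, named after their values were seen, were highest in mutant mouse 2, at 13.8 and 4.62 against 7.08 and 3.98 in Wt mouse 1. Summed, the 8 genes were at 87.8, 7.10 and 12.3 normalized CPM in Wt and 10.01, 24.7 and 4.91 in mutant mice, and Cdh1, the adhesion protein of epithelium, was at 14.7 in Wt mouse 1 and 0.983 to 3.24 in the others. Between genotypes 0 of the 8 passed the FDR by limma or edgeR, against 8.11% and 6.92% of all genes. An unadjusted limma p under 0.05 was found for 1, and DESeq2 called 2, against 24.2% and 12.6% of all genes. Wt mouse 1 also had the lowest Glycam1, Chst4, Madcam1, Cxcl13, Cr2, Fcer2a and Ccr7 among the 5 mice in which lymphoid genes were well read. For Madcam1 the margin was small, at 1.21 against 1.35 in Wt mouse 3. The part of the tissue sampled in each mouse is not stated in the labels and was not tested.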
